A study of Mus musculus with 7 samples.

Results

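The 10 genes described here are the transcription factors that drive epithelial-mesenchymal transition (EMT), Snai1, Snai2, Zeb1, Zeb2, Twist1 and Twist2, with the cadherins Cdh1 and Cdh2, vimentin (Vim) and fibronectin (Fn1). They were chosen by name, as the rows of the gene table whose Ensembl identifiers map to these symbols, and all 10 of them were found among 43346 genes. RNA was sequenced from 7 whole colon tumors, of which 4 grew in mice carrying Dnmt3a(+/-)-BM and 3 in mice carrying Dnmt3a(+/+)-BM. The comparison asks how heterozygous loss of the DNA methyltransferase Dnmt3a in the blood system is accompanied by changes in the tumor. Donor bone marrow (BM) carried the interferon-inducible Mx1-Cre, and the donors of both groups had been given poly(I:C) to induce it. The marrow was transferred into lethally irradiated congenic recipients, so the Dnmt3a deletion is confined to the graft, while tumor epithelium and most stroma are of the host. Recipients of both groups, 8 weeks old by the labels, were injected once with azoxymethane (10 mg/kg), a colon carcinogen, and then drank 3% dextran sulfate sodium in 3 cycles, each 1 week on and 2 weeks off. The transplantation experiment BMT18 gave Dnmt3a(+/+)-BM replicates 1 and 2 and Dnmt3a(+/-)-BM replicates 1 and 2, and BMT8 gave Dnmt3a(+/+)-BM replicate 3 and Dnmt3a(+/-)-BM replicates 3 and 4. The labels call the tumors biological replicates without saying more, so p-values measure the spread between these tumors.

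In EMT, an epithelial cell loses its lateral junctions and takes on the shape and motility of a mesenchymal cell. Snail (Snai1), Slug (Snai2), Zeb and Twist proteins bind E-box motifs and repress epithelial genes, among them Cdh1, which encodes the E-cadherin of adherens junctions. Cdh2 (N-cadherin), Vim (an intermediate filament protein) and Fn1 (a matrix glycoprotein) are the products usually read as mesenchymal. In a whole tumor, fibroblasts, endothelial cells and leukocytes also transcribe Vim, Fn1, Zeb1, Zeb2 and Twist genes, and in bulk RNA fewer cells of a type and less RNA per cell cannot be told apart.

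The Snail and Twist pairs are paralogs whose DNA-binding domains are close at the base level, and how reads are divided between them bears on every value given for them. The most alike 150-base coding stretches within 1 exon of both genes are printed here for that reason, 5′ to 3′, from GENCODE M21 on GRCm38, with the bases at which the partners differ in capitals. The Snail stretch lies in exon 2 of either gene, in the zinc finger region, at chr2:167539048-167539197 (+ strand) for Snai1 and chr16:14707109-14707258 (+ strand) for Snai2, and differs at 27 of 150 bases. The Twist stretch lies in exon 1, over the basic helix-loop-helix region, at chr12:33958324-33958473 (+ strand) for Twist1 and chr1:91801835-91801984 (+ strand) for Twist2, and differs at 15 of 150 bases.
Snai1: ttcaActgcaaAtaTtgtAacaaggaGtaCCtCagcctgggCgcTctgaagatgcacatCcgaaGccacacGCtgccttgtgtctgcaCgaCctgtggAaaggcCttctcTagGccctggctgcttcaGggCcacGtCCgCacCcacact
Snai2: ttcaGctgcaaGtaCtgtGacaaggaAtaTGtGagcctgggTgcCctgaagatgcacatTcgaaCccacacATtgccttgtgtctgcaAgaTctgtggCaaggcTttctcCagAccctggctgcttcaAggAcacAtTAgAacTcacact
Twist1: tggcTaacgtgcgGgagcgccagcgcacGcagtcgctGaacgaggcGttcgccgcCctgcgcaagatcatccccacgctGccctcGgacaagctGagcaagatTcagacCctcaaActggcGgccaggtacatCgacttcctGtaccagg
Twist2: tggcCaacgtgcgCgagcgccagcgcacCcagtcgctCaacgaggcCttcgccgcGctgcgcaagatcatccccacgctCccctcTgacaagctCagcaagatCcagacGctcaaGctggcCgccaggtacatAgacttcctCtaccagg
The differing bases are scattered along each stretch. No run of 31 bases was shared between any Snai1 and Snai2 transcript, and none between any Twist1 and Twist2 transcript. Between Zeb1 and Zeb2, 2 runs of 31 bases were shared, of 10418 in Zeb1 and 20151 in Zeb2. Transcripts on the opposite strand overlap Zeb1, Zeb2 (Zeb2os), Twist2, Cdh2 and Fn1. The library kit is directional, but the strand setting used in counting is not given in the sources used here.

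The tumors held 38472738 to 64314999 counts each. The first principal component took 42.9% of the variance and placed Dnmt3a(+/-)-BM replicate 2 alone at its far end, and this tumor was the highest of the 7 in 24.7% of the 15810 genes tested. Colon epithelial markers were abundant in all 7 tumors, with a summed level of 18282 to 35271 CPM (counts scaled to the size of each library) over 15 genes in the Dnmt3a(+/+)-BM tumors and 8975 to 21830 CPM in the Dnmt3a(+/-)-BM tumors. The labelled tissue is colon, yet 15 genes of stratified squamous epithelium, listed after keratin counts had been seen, were also abundant in 6 of the 7 tumors. They took 2.55%, 0.526% and 0.51% of all counts in Dnmt3a(+/+)-BM replicates 1 to 3, and 3.09%, 0.0397%, 0.649% and 0.546% in Dnmt3a(+/-)-BM replicates 1 to 4. Krt5, a keratin of basal squamous cells, stood at 5158, 927 and 1368 CPM in the former and at 5963, 0.0815, 1218 and 1487 CPM in the latter. Dnmt3a(+/+)-BM replicate 1 and Dnmt3a(+/-)-BM replicate 1 thus held the most squamous transcripts and Dnmt3a(+/-)-BM replicate 2 almost none. Dnmt3a(+/+)-BM replicate 3 stood apart in smooth muscle, with the smooth muscle myosin Myh11 at 0.734 CPM against 26.3 to 297 CPM in the other 6 tumors. For the members and the lists, values without Dnmt3a(+/-)-BM replicate 2 are therefore given where they turn a direction or differ by over 1.5 times. Dnmt3a itself is heterozygously deleted in graft-derived cells of the Dnmt3a(+/-)-BM group only. It was at 22.5 ± 2.06 CPM (SD, n = 3) in Dnmt3a(+/+)-BM tumors and 30.3 ± 8.94 CPM (SD, n = 4) in Dnmt3a(+/-)-BM tumors, with overlap. The leukocyte antigen Ptprc, which marks blood cells, was at 11.2 ± 4.88 CPM and 13.4 ± 6.53 CPM, with overlap.

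The members differed widely in level. Per kilobase of exon, the mean level in Dnmt3a(+/+)-BM tumors was 248 ± 29.6 CPM/kb for Cdh1 (SD, n = 3, as for the values that follow), 21.9 ± 8.06 for Vim, 7.03 ± 2.66 for Fn1 and 3.82 ± 2.98 for Snai2. The remaining 6 members lay lower, at 0.551 ± 0.171 CPM/kb for Snai1, 0.372 ± 0.369 for Twist2, 0.187 ± 0.0819 for Zeb1, 0.132 ± 0.0167 for Twist1, 0.119 ± 0.0316 for Zeb2 and 0.0239 ± 0.00817 for Cdh2. Cdh1 stood above Vim, Vim above Fn1, Snai2 above Snai1, and Cdh2 below Zeb2 by more than the SDs of both. Fn1 and Snai2, Snai1 and Twist2, Twist2 and Zeb1, Zeb1 and Twist1, and Twist1 and Zeb2 did not differ beyond their spread in that order. In the Dnmt3a(+/-)-BM tumors, Cdh1 was likewise highest, at 221 ± 8.10 CPM/kb (SD, n = 4), and Cdh2 lowest, at 0.0314 ± 0.00895.

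**Figure D1:**
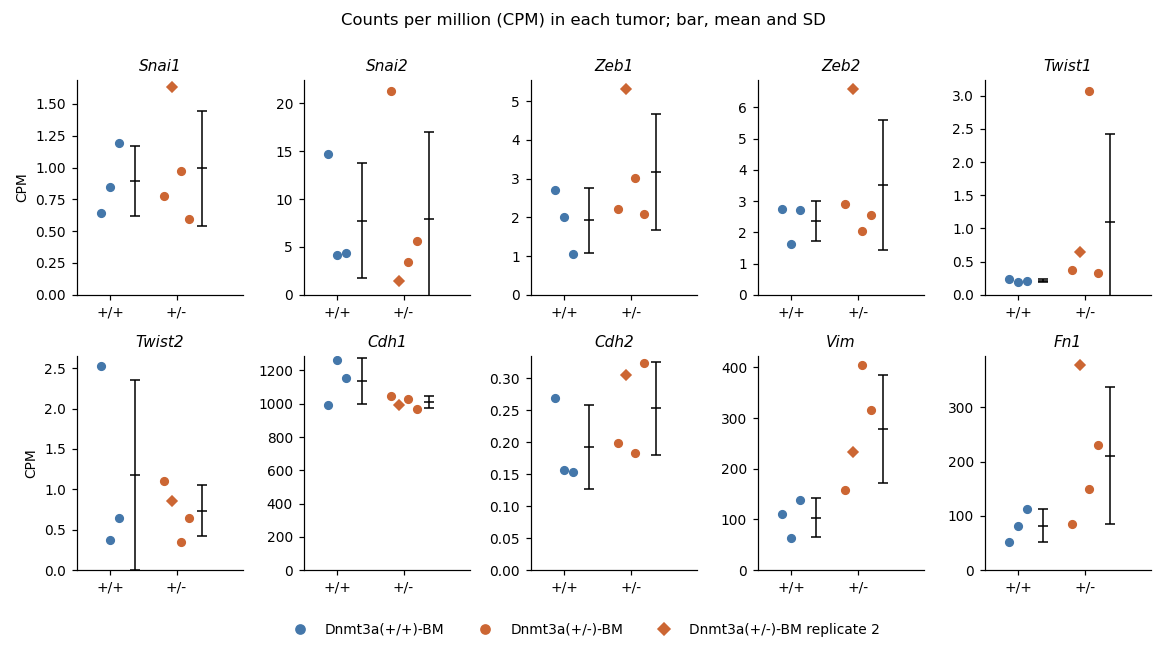
Level of each of the 10 genes in CPM on a linear axis from 0, 1 point per tumor, for Dnmt3a(+/+)-BM (n = 3) and Dnmt3a(+/-)-BM (n = 4), with the mean and SD as a black bar that is cut where it would pass below 0. Vim and Twist1 do not overlap between the groups, 1 tumor holds most of the Twist1 signal, and Dnmt3a(+/-)-BM replicate 2 (diamond) is highest for Snai1, Zeb1, Zeb2 and Fn1.

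Across the 10 genes, Vim, Fn1 and Twist1 had the larger values with Dnmt3a(+/-)-BM, while Cdh1, Snai1, Snai2 and Twist2 were near or within the spread of the Dnmt3a(+/+)-BM tumors. None of them passed edgeR's quasi-likelihood test. With p-values adjusted over all genes by Benjamini-Hochberg, and both an adjusted p under 0.05 and a log2 fold change over 1 in size required, edgeR called 0 of 15810 genes tested (0%), with 1744 at an unadjusted p under 0.05, of which 922 were higher (5.83%) and 822 lower (5.20%) with Dnmt3a(+/-)-BM. DESeq2 called 300 of the 24352 genes with a count in any tumor (1.23%). That set is wider than the genes tested by edgeR and includes genes to which DESeq2 gave no adjusted p. Of the members, 9 had enough counts to be tested and Cdh2 did not. Of these 9, 7 had a log2 fold change above 0, against 50.2% of all genes tested, and 3 (Vim, Fn1 and Twist1) had an unadjusted p under 0.05 in the higher direction, against 5.83% of all genes. The groups did not overlap for 2 of the 9, both higher with Dnmt3a(+/-)-BM, against 6.12% of all genes in that direction. Dnmt3a(+/-)-BM replicate 2 was the highest tumor for 4 of the 9. With 9 genes chosen by name, these counts are a description.

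Vim, on chromosome 2 (13573927 to 13582826, + strand), did not overlap between the groups. It stood at 111, 62.7 and 138 CPM in Dnmt3a(+/+)-BM replicates 1 to 3 and at 159, 234, 405 and 316 CPM in Dnmt3a(+/-)-BM replicates 1 to 4. All 4 Dnmt3a(+/-)-BM tumors lay above the highest Dnmt3a(+/+)-BM tumor, and the highest was replicate 3, not replicate 2. The log2 fold change was 1.42 (SE 0.39, 95% interval 0.53 to 2.32), with an unadjusted p of 0.00664 and an adjusted p of 0.361 by edgeR. Without Dnmt3a(+/-)-BM replicate 2 it was 1.53 (SE 0.43), and within BMT18, the experiment with 2 tumors of each group, it was 1.19 (unadjusted p = 0.0346). BMT8 holds 1 Dnmt3a(+/+)-BM tumor, so it gives no value of its own. DESeq2 called Vim, with an adjusted p of 0.0263, the only call among the members. That call ended when Dnmt3a(+/+)-BM replicate 1 (adjusted p = 0.0992) or replicate 2 (0.275) was left out, or Dnmt3a(+/-)-BM replicate 3 (0.136) or replicate 4 (0.0870), and it held without any of the other 3 tumors.

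Fn1, on chromosome 1 (71585520 to 71653200, - strand), was at 51.3, 81.6 and 113 CPM in Dnmt3a(+/+)-BM replicates 1 to 3 and at 85.0, 378, 150 and 230 CPM in Dnmt3a(+/-)-BM replicates 1 to 4. The groups overlapped through Dnmt3a(+/-)-BM replicate 1, and replicate 2 was the highest. The log2 fold change was 1.36 (SE 0.51, 95% interval 0.17 to 2.55; edgeR adjusted p = 0.420). It was 0.95 (SE 0.43) without Dnmt3a(+/-)-BM replicate 2 and 1.82 within BMT18.

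Twist1, on chromosome 12 (33957671 to 33959829, + strand), gave the largest fitted fold change of the members and rested on few counts. Its counts were between 7 and 151 per tumor, and its level was 0.242, 0.187 and 0.214 CPM in Dnmt3a(+/+)-BM replicates 1 to 3 and 0.374, 0.652, 3.07 and 0.324 CPM in Dnmt3a(+/-)-BM replicates 1 to 4. Every Dnmt3a(+/-)-BM tumor was above every Dnmt3a(+/+)-BM tumor, but replicate 3 alone was several times any other. The log2 fold change was 2.36 (SE 0.92; edgeR unadjusted p = 0.0337, adjusted p = 0.422) and was 1.07 without Dnmt3a(+/-)-BM replicate 3. It was 1.28 within BMT18 and 1.89 with the transplantation experiment as a covariate. DESeq2 gave Twist1 an adjusted p of 0.146.

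Twist2, which acts in dermal and other mesenchyme, went the other way in its mean. It was at 2.53, 0.375 and 0.642 CPM in Dnmt3a(+/+)-BM tumors and at 1.10, 0.856, 0.345 and 0.649 CPM in Dnmt3a(+/-)-BM tumors. The groups overlapped, and the difference hung on Dnmt3a(+/+)-BM replicate 1. The log2 fold change was -0.67 (SE 0.72; edgeR adjusted p = 0.771) and 0.54 without that tumor.

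Zeb1 and Zeb2, the zinc finger and homeodomain repressors of Cdh1, were low and highest in the same tumor. Zeb1 was at 2.71, 2.01 and 1.04 CPM in Dnmt3a(+/+)-BM tumors and at 2.22, 5.32, 3.01 and 2.08 CPM in Dnmt3a(+/-)-BM tumors. Zeb2 was at 2.74, 1.64 and 2.72 CPM and at 2.92, 6.60, 2.03 and 2.54 CPM in the same order. Apart from Dnmt3a(+/-)-BM replicate 2, the Zeb2 values of the groups fell within the same narrow range, and those of Zeb1 overlapped as well. The log2 fold changes were 0.71 for Zeb1 (SE 0.49; edgeR adjusted p = 0.617) and 0.58 for Zeb2 (SE 0.49; adjusted p = 0.694). Without Dnmt3a(+/-)-BM replicate 2 they were 0.37 and 0.10.

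Snai1, a target of TGF-beta signaling that represses Cdh1, was at 0.645, 0.843 and 1.19 CPM in Dnmt3a(+/+)-BM tumors and at 0.774, 1.63, 0.975 and 0.595 CPM in Dnmt3a(+/-)-BM tumors. The lowest and the highest value both came from Dnmt3a(+/-)-BM tumors. The log2 fold change was 0.16 (SE 0.48, 95% interval -0.95 to 1.26; edgeR adjusted p = 0.938), and it was -0.16 without Dnmt3a(+/-)-BM replicate 2.

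**Figure D2:**
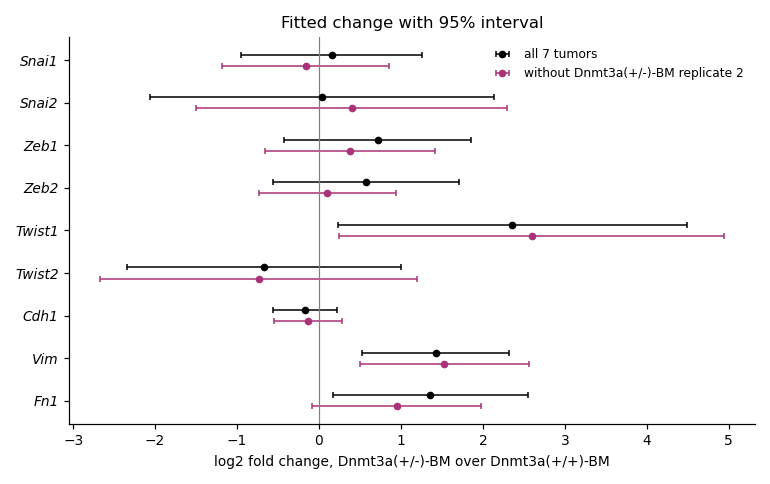
Log2 fold change of Dnmt3a(+/-)-BM over Dnmt3a(+/+)-BM with its 95% interval from the edgeR fit, for the 9 genes tested, over all 7 tumors (black) and without Dnmt3a(+/-)-BM replicate 2 (purple). The intervals of Vim and Twist1 lie above 0 in both fits, that of Fn1 in the fit of all tumors only, and the others include 0; the intervals are not adjusted for the number of genes.

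Snai2 was highest in the 2 tumors richest in squamous epithelial genes and lowest in the tumor that almost lacked them. It was at 14.7, 4.12 and 4.37 CPM in Dnmt3a(+/+)-BM replicates 1 to 3 and at 21.3, 1.43, 3.43 and 5.57 CPM in Dnmt3a(+/-)-BM replicates 1 to 4. The values spread over a wide range in both groups, and the highest of either group was its replicate 1. The log2 fold change was 0.04 (SE 0.90, 95% interval -2.06 to 2.13; edgeR adjusted p = 0.994). It was 0.40 without Dnmt3a(+/-)-BM replicate 2, and leaving out 1 tumor at a time moved it from -1.16 (without Dnmt3a(+/-)-BM replicate 1) to 0.90 (without Dnmt3a(+/+)-BM replicate 1). Trp63, the transcription factor of basal squamous cells, was at 144, 32.9 and 32.7 CPM and at 196, 0.0204, 43.6 and 45.7 CPM in the same tumors, so the same 2 tumors were highest and the same 1 lowest. The squamous list as a whole had a mean log2 CPM of 8.40, 6.51 and 6.22 in Dnmt3a(+/+)-BM tumors and 9.01, 1.01, 6.50 and 5.97 in Dnmt3a(+/-)-BM tumors. Of its 15 genes, all were tested, 7 were higher and 8 lower, and the median log2 fold change was -0.02. Of the same genes, 14 were higher and 1 lower without Dnmt3a(+/-)-BM replicate 2, with a median of 0.34. Snai2 minus that mean was between -4.70 and -3.48 in the 6 tumors other than Dnmt3a(+/-)-BM replicate 2, where it was -0.45. The gene nearest to Snai2 over the 7 tumors was Fabp5, the epidermal fatty acid binding protein, with a root mean square difference of 0.0924 in centred log2 CPM, and the next was Amdhd1, with 0.172. The part of squamous epithelium in the Snai2 values was not tested.

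**Figure D3:**
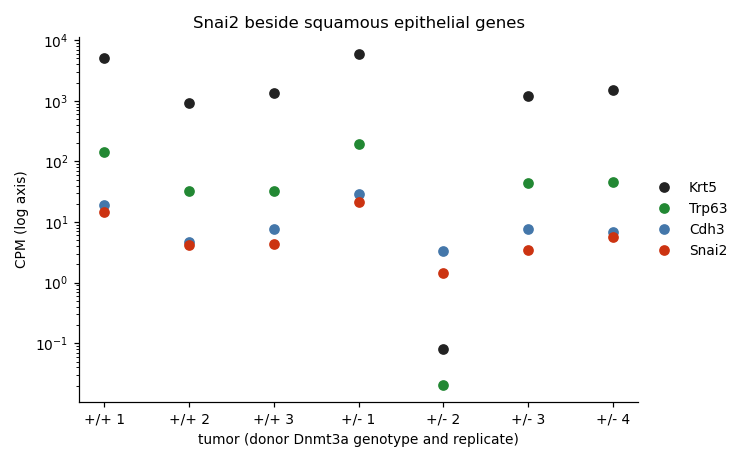
CPM on a log axis of Snai2, Cdh3 and the squamous epithelial genes Krt5 and Trp63 in each of the 7 tumors, 1 point per gene and tumor. All 4 genes are highest in replicate 1 of either group and lowest in Dnmt3a(+/-)-BM replicate 2, where Krt5 and Trp63 drop to 0.0815 and 0.0204 CPM.

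Cdh1, on chromosome 8 (106603351 to 106670246, + strand), was the steadiest of the members. It was at 992, 1261 and 1156 CPM in Dnmt3a(+/+)-BM tumors and at 1048, 992, 1031 and 967 CPM in Dnmt3a(+/-)-BM tumors. The groups overlapped, and the log2 fold change was -0.17 (SE 0.17, 95% interval -0.56 to 0.22; edgeR adjusted p = 0.740). It turned to 0.04 when counts were scaled by library size only, a scaling that moves the median of all genes from 0.00 to 0.21. Set against the Colon epithelium list, within each tumor, Cdh1 was higher in every Dnmt3a(+/-)-BM tumor, by 0.45 in the mean of log2 CPM differences, as were Vim, Fn1 and Twist1. On that scale, 27.2% of all genes tested did not overlap in the higher direction and 0.342% in the lower. The Colon epithelium list itself had 14 of its 15 genes lower in the Dnmt3a(+/-)-BM tumors, and its median log2 fold change was -0.73, and -0.48 without Dnmt3a(+/-)-BM replicate 2. Squamous cells also carry Cdh1, and their part in its level was not tested.

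Cdh2 was barely detected. It had 5 to 15 counts per tumor, or 0.269, 0.156 and 0.153 CPM in Dnmt3a(+/+)-BM tumors and 0.200, 0.306, 0.183 and 0.324 CPM in Dnmt3a(+/-)-BM tumors, and did not pass the filter on low counts. Within each tumor, Cdh1 exceeded Cdh2 by 12.2 to 13.4 log2 units of CPM per kilobase. The mean of this difference was 13.1 ± 0.542 (SD, n = 3) with Dnmt3a(+/+)-BM and 12.6 ± 0.405 (SD, n = 4) with Dnmt3a(+/-)-BM, with overlap between the groups. A switch from Cdh1 to Cdh2 was not detectable on the scale of the whole tumor at this depth.

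Several of the other cadherins did not overlap between the groups, some higher and some lower with Dnmt3a(+/-)-BM. Of 17 listed, 10 were tested and 7 of them did not overlap between the groups, 4 higher and 3 lower with Dnmt3a(+/-)-BM, against 6.12% and 6.32% of all genes. Cdh13, the GPI-anchored T-cadherin of vessels and muscle, was at 20.1, 11.8 and 15.05 CPM in Dnmt3a(+/+)-BM tumors and at 29.2, 64.3, 34.4 and 38.9 CPM in Dnmt3a(+/-)-BM tumors. Its log2 fold change was 1.41 (SE 0.32), with an adjusted p of 0.361 by edgeR and 0.00630 by DESeq2. Cdhr2, a protocadherin of the brush border that links neighbouring microvilli, was at 257, 328 and 271 CPM against 157, 132, 208 and 140 CPM. Its log2 fold change was -0.84 (SE 0.20), with an adjusted p of 0.361 by edgeR and 0.0440 by DESeq2. Cdh17, the liver-intestine cadherin, and Cdhr5, the partner of Cdhr2 on microvilli, had the highest levels of the list and were lower in every Dnmt3a(+/-)-BM tumor, with log2 fold changes of -0.40 (SE 0.17) and -0.94 (SE 0.29). The following 3 were singled out after their values were seen. Cdh5, the cadherin of endothelial junctions, was at 2.34, 1.97 and 4.89 CPM against 5.02, 49.4, 6.38 and 13.0 CPM, without overlap, and its log2 fold change was 2.59 (SE 0.89) over all tumors and 1.44 (SE 0.52) without Dnmt3a(+/-)-BM replicate 2. Cdh11, the cadherin of mesenchymal cells, was at 2.60 CPM in the mean of Dnmt3a(+/+)-BM tumors and 6.61 CPM in that of Dnmt3a(+/-)-BM tumors, also without overlap. Cdh3, the P-cadherin of basal squamous cells, was at 19.2, 4.64 and 7.74 CPM against 28.5, 3.36, 7.66 and 6.76 CPM, and like Snai2 it was highest in replicate 1 of either group and lowest in Dnmt3a(+/-)-BM replicate 2. Cdh16, a kidney cadherin, had 0 counts in all 7 tumors.

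**Figure D4:**
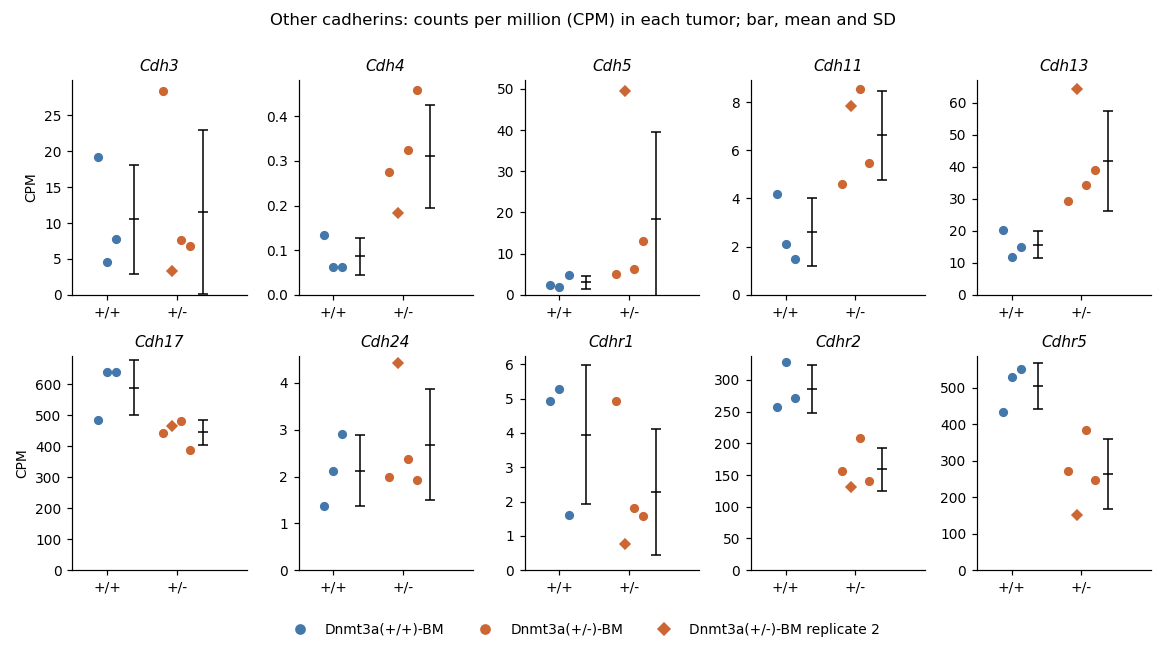
Level of the 10 other cadherins tested, in CPM on linear axes from 0, 1 point per tumor, with the mean and SD as a black bar cut at 0. Cdh4, Cdh5, Cdh11 and Cdh13 are higher and Cdh17, Cdhr2 and Cdhr5 lower in all 4 Dnmt3a(+/-)-BM tumors, and Dnmt3a(+/-)-BM replicate 2 (diamond) sets the mean of Cdh5.

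Of the catenins and junction partners, through which cadherins reach actin, 13 of 15 were tested, 5 higher and 8 lower, and the median log2 fold change was -0.01. The balance turned over without Dnmt3a(+/-)-BM replicate 2, to 9 higher and 4 lower with a median of 0.10. Nectin1, Jup, Afdn, Ctnnbip1 and Ctnnd2 were, like Snai2, highest in replicate 1 of either group and lowest in Dnmt3a(+/-)-BM replicate 2. The other genes tested in this list did not follow that order in full, and the part of squamous epithelium was not tested. Ctnnb1, beta-catenin, was at 1151 CPM in the mean of Dnmt3a(+/+)-BM tumors and 1302 CPM in the mean of Dnmt3a(+/-)-BM tumors, with a log2 fold change of 0.18 (SE 0.17), and Ctnna1, alpha-catenin, had one of -0.01 (SE 0.20). Arvcf, a p120-type catenin, did not overlap and was higher, at 7.98, 6.37 and 7.10 CPM against 11.004, 12.9, 13.2 and 14.5 CPM (log2 fold change 0.85, SE 0.21). Its adjusted p was 0.361 by edgeR and 0.00315 by DESeq2, which did not call it because its log2 fold change is under 1. Nectin3, a nectin that binds across cell contacts, was lower, with a log2 fold change of -0.74 (SE 0.27).

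Epithelial junction genes known as targets of EMT repressors were mostly below 0 without passing the adjusted test. All 22 were tested, 19 had a log2 fold change below 0 and 3 above, the median was -0.36, and 5 had an unadjusted p under 0.05 in the lower direction (5.20% of all genes). Marveld3 and Tjp3, both of tight junctions, were lower in every Dnmt3a(+/-)-BM tumor, with log2 fold changes of -0.41 (SE 0.12) and -0.48 (SE 0.17; edgeR adjusted p = 0.373 and 0.406). Epcam and Cldn7, the most abundant of the list, overlapped, with log2 fold changes of -0.48 (SE 0.26) and -0.58 (SE 0.31). Without Dnmt3a(+/-)-BM replicate 2, 18 of the 22 were below 0, the median was -0.24 and 1 had an unadjusted p under 0.05 in the lower direction (3.15% of all genes). The Colon epithelium list stood lower in both fits, with medians of -0.73 and -0.48. Dsp and Dsc2 were, like Snai2, highest in replicate 1 of either group and lowest in Dnmt3a(+/-)-BM replicate 2. The other genes of the list did not follow that order in full, and the part of squamous epithelium was not tested.

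The factors that oppose EMT in epithelium (Grhl, Ovol, Esrp, Elf and Klf genes) had 9 of 10 members below 0, with a median log2 fold change of -0.44. Klf4, of differentiated surface cells, was at 530, 447 and 288 CPM against 329, 91.8, 236 and 189 CPM (log2 fold change -0.99, SE 0.41; edgeR adjusted p = 0.437). Elf3, an epithelial ETS factor, did not overlap, with a log2 fold change of -0.38 (SE 0.16). Without Dnmt3a(+/-)-BM replicate 2 the median of this list was -0.18. Grhl1, Grhl3 and Esrp2 were, like Snai2, highest in replicate 1 of either group and lowest in Dnmt3a(+/-)-BM replicate 2. Klf4 was also lowest in that tumor, but Dnmt3a(+/+)-BM replicate 2 stood above Dnmt3a(+/-)-BM replicate 1. The other genes of the list did not follow that order in full. The part of squamous epithelium in the values of this list was not tested.

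Among the other transcription factors tied to EMT, 12 of 14 were tested, 8 higher and 4 lower, with a median log2 fold change of 0.28, and 4 had an unadjusted p under 0.05, all higher (5.83% of all genes). Foxc2, a forkhead factor of mesenchyme and lymphatic vessels, was at 0.752, 0.687 and 0.734 CPM against 1.40, 8.29, 4.22 and 4.16 CPM, without overlap. Its log2 fold change was 2.64 (SE 0.60; edgeR adjusted p = 0.361), and DESeq2 called it with an adjusted p of 0.001015. Msx1, a homeobox factor, was at 2.55, 1.12 and 2.42 CPM against 3.92, 9.96, 13.4 and 6.57 CPM, with a log2 fold change of 2.06 (SE 0.52) and a DESeq2 adjusted p of 0.00386. Tcf4, an E protein that pairs with Twist factors, and Sox4 had the highest mean CPM of the list over all 7 tumors, with log2 fold changes of 1.41 (SE 0.43) and 0.73 (SE 0.46). Without Dnmt3a(+/-)-BM replicate 2, the median of the list was 0.32 and 4 genes had an unadjusted p under 0.05 in the higher direction (4.00% of all genes).

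The mesenchymal products raised in EMT, a list of matrix, cytoskeletal and cell surface genes, were higher in 22 of 26 with a median log2 fold change of 0.84. That median was 0.26 without Dnmt3a(+/-)-BM replicate 2. Mmp9, a matrix gelatinase also made by leukocytes, was at 3.71, 2.59 and 4.13 CPM against 4.79, 52.9, 11.7 and 7.49 CPM (log2 fold change 2.47, SE 0.86; edgeR adjusted p = 0.406). DESeq2 called it with an adjusted p of 0.0390. Its log2 fold change was 1.24 (SE 0.41) without Dnmt3a(+/-)-BM replicate 2. Mmp14, a membrane-bound collagenase, also did not overlap, at 170, 123 and 174 CPM against 199, 244, 203 and 216 CPM. Sdc1 and Tpm1, the most abundant of the list, had log2 fold changes of 0.06 (SE 0.37) and -0.18 (SE 0.21). Sdc1 was highest in replicate 1 of either group, at 845, 418 and 432 CPM against 934, 514, 461 and 440 CPM. S100a4 and Tpm2 were, like Snai2, highest in replicate 1 of either group and lowest in Dnmt3a(+/-)-BM replicate 2. The part of squamous epithelium in these values was not tested. TGF-beta ligands, receptors and Smads had 11 of 14 genes above 0 with a median of 0.19, and 9 of 14 with a median of 0.10 without Dnmt3a(+/-)-BM replicate 2. Ltbp1, which tethers latent TGF-beta to the matrix, was at 11.2, 5.73 and 7.07 CPM against 16.2, 24.2, 21.4 and 12.4 CPM, with a log2 fold change of 1.21 (SE 0.33) and an adjusted p of 0.361 by edgeR and 0.0331 by DESeq2. Smad2 had a log2 fold change of -0.37 (SE 0.16), and Smad4 and Skil, the most abundant, had -0.17 (SE 0.20) and 0.04 (SE 0.24).

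Markers of stromal cells also stood higher with Dnmt3a(+/-)-BM in most lists, and Dnmt3a(+/-)-BM replicate 2 held the most of several of them. The fibroblast list had 11 of 12 tested genes above 0 with a median log2 fold change of 0.73, which was 0.22 without that tumor. Its summed level was 210 to 339 CPM in Dnmt3a(+/+)-BM tumors and 295 to 1164 CPM in Dnmt3a(+/-)-BM tumors, with Fap and Mfap5 too low to test. The endothelial list had all 13 genes above 0, with a median of 1.72 and 9 genes at an unadjusted p under 0.05 in the higher direction (5.83% of all genes). Without that tumor it had a median of 1.23 and 5 such genes (4.00% of all genes). Its summed level was 22.6 to 52.9 CPM in Dnmt3a(+/+)-BM tumors and 49.3 to 195 CPM in Dnmt3a(+/-)-BM tumors. The endothelial adhesion molecule Pecam1 was at 4.49, 5.21 and 8.14 CPM against 9.16, 30.8, 12.2 and 18.0 CPM, without overlap. The pericyte list had 7 of 7 genes above 0 with a median of 0.95, and 0.56 without that tumor. Lists of smooth muscle, leukocytes, macrophages, neutrophils and T cells had medians of 0.05, 0.39, 0.83, -0.09 and -0.27, and without that tumor 0.30, -0.03, 0.07, -0.05 and -0.62. The enteric neuron and glia list had a median of 0.78, and 0.47 without that tumor, with the glial markers Sox10 and S100b too low to test. The part of these cells in the members' values was not tested.

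**Figure D5:**
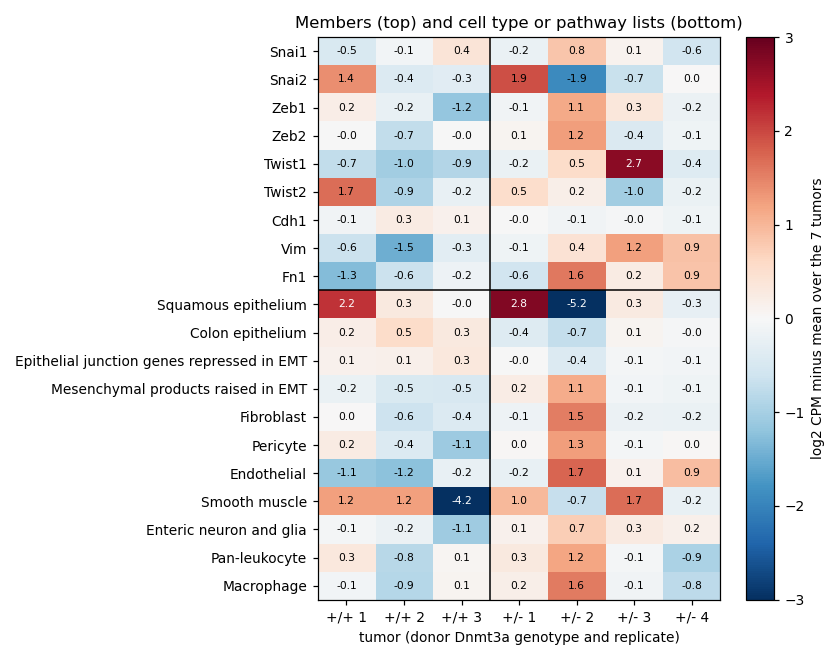
Log2 CPM of 9 members (upper rows) and mean log2 CPM of cell type and pathway lists (lower rows) in each tumor, as the difference from the mean over the 7 tumors, printed in each cell, with colors ending at 3 in either direction. Dnmt3a(+/-)-BM replicate 2 is high for the Zeb genes, Fn1, fibroblast, pericyte and endothelial lists and lowest for squamous genes and Snai2. Vim is also high in Dnmt3a(+/-)-BM replicates 3 and 4. The fibroblast list mean is 3.81 and 3.77 there, within the 3.37 to 3.99 of the tumors other than replicate 2. Replicate 2, at 5.52, raises the mean from which that row is drawn.

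Set against the mean of the fibroblast list within each tumor, none of the 9 members tested separated the groups, where 8.02% of all genes did, 1.29% higher and 6.73% lower. Vim minus that mean was 2.80, 2.61 and 3.53 in log2 CPM in Dnmt3a(+/+)-BM tumors and 3.47, 2.35, 4.85 and 4.53 in Dnmt3a(+/-)-BM tumors. Dnmt3a(+/-)-BM replicates 3 and 4 were above every other tumor on that scale, and replicate 2 was the lowest of the 7. Fn1 minus the same mean was 1.70, 2.99 and 3.25 against 2.57, 3.05, 3.42 and 4.07, and Zeb2 minus it had a range over all 7 tumors of -2.78 to -2.11. Vim minus the pericyte list mean was 4.26, 4.09 and 5.91 against 4.97, 4.33, 6.44 and 5.98, with overlap. The endothelial list mean, against which Vim was not set, was 0.64, 0.54 and 1.56 in log2 CPM against 1.55, 3.52, 1.91 and 2.69. With the fibroblast list mean as a covariate of the edgeR fit, the log2 fold change was 1.48 for Vim (unadjusted p = 0.0129), 2.58 for Twist1 (0.0399), 0.86 for Fn1 (0.138), 0.24 for Zeb1 (0.592) and -0.04 for Zeb2 (0.896). That list mean was 5.52 in Dnmt3a(+/-)-BM replicate 2 and between 3.37 and 3.99 in the other tumors, so the covariate mostly set that tumor apart. The fit without that tumor gave similar values, at 1.53 for Vim, 2.59 for Twist1 and 0.95 for Fn1. The covariate fit cannot separate fibroblast content from other traits of that tumor.

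By likeness over the 7 tumors, the 2 genes nearest to each remaining member that varied were Ism2 and Scx for Vim (root mean square differences of 0.175 and 0.186 in centred log2 CPM), Pdgfb and Apln for Fn1 (0.126 and 0.177), Pcdhgc5 and Gpr55 for Zeb1 (0.107 and 0.156), and Shisa7 and Gdpd5 for Zeb2 (0.135 and 0.140). For Twist2 they were Scd4 and Procr (0.194 and 0.212), and for Twist1 the nearest, Igf2bp2 and Pcdhb14, were farther off (0.5003 and 0.557). Among the members themselves, the closest pair was Snai1 and Cdh1, with 0.449, and the farthest was Snai2 and Fn1, with 1.98. Snai1 and Cdh1 varied little, with an SD of log2 CPM of 0.486 and 0.139. The measure is small for any 2 genes that vary little, so the closeness of this pair does not show a shared pattern. No 2 members were as near to each other as Zeb1, Zeb2, Fn1 and Vim each were to their nearest gene. The nearest gene was sought among all genes tested and the nearest member among the members only. The larger search alone gives smaller distances, so this difference does not show whether members share a pattern. Of the nearest genes, Pcdhgc5, Ism2, Scx, Scd4 and Pcdhb14 were low, at a mean of 0.382, 0.481, 0.644, 0.4125 and 0.666 CPM.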

How the data were processed

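Polyadenylated RNA of 7 whole tumors was sequenced, and per the labels and methods the authors trimmed reads with Trimmomatic, aligned them to mm10 with STAR and counted with RSEM. The deposited values are RSEM's estimated counts per gene, all whole numbers, without normalization. The annotation release is not given in the sources used here. Depth was 38472738 to 64314999 counts per tumor, and 0.104% of counts lay on genes without a symbol. Symbols and positions are from GENCODE M21 (GRCm38).

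Groups were compared over all genes in edgeR 4.0.16 under R 4.3.3 (quasi-likelihood test without covariates, TMM library sizes, genes kept by filterByExpr). Calls needed a Benjamini-Hochberg adjusted p under 0.05 and a log2 fold change over 1 in size. CPM use TMM library sizes, and log2 CPM a prior count of 2. A level relative to a list is log2 CPM minus the list's mean. The alternatives were DESeq2 1.42.0, other scalings, filters and dispersions, the experiment, the replicate number or the fibroblast list mean as a covariate, BMT18 alone and each tumor left out. DESeq2 without single tumors and the squamous list were added after seeing the data.

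The members and lists were chosen with earlier results of these data known, so no list was tested as a set. Named genes are the members, in each list the 2 with the lowest p and the 2 with the highest level, markers at 0, the 2 nearest genes of members whose SD of log2 CPM exceeds 0.5, and Dnmt3a and Ptprc. Other names, and all squamous genes, were chosen after their values were seen.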

Additional observations from a re-analysis of the deposited data

Results flagged for a closer look

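In groups of 4 tumors, 3 of 32 values had 1 tumor far from the others by Dixon's ratio, where chance flags about 1 in 20. Twist1 stood at 3.07 CPM in Dnmt3a(+/-)-BM replicate 3, against 0.324 to 0.652 CPM in the other 3. The fibroblast list had a mean log2 CPM of 5.52 in Dnmt3a(+/-)-BM replicate 2, against 3.77 to 3.84 in the others. The pericyte list had a mean log2 CPM of 3.54 in the same tumor, against 2.22 to 2.34.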

How the results depend on the processing

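No alternative but DESeq2 called any gene. DESeq2 called 300 genes, with Vim at 1.44, and 171 without Dnmt3a(+/-)-BM replicate 2, with Vim at 1.51 and Snai1 turned to -0.18. Scaling by library size only turned Cdh1 to 0.039. The fibroblast list mean as covariate left 886 genes at an unadjusted p under 0.05 and turned Snai1 to -0.25 and Zeb2 to -0.045. Leaving out single tumors gave 883 (without Dnmt3a(+/+)-BM replicate 2) to 2143 such genes (without Dnmt3a(+/-)-BM replicate 1), with 1114 without Dnmt3a(+/-)-BM replicate 2. It gave log2 fold changes of -0.16 to 0.42 for Snai1, -1.16 to 0.90 for Snai2, -1.11 to 0.54 for Twist2, 0.37 to 1.04 for Zeb1, 0.10 to 0.77 for Zeb2, 1.07 to 2.68 for Twist1, -0.26 to -0.09 for Cdh1, 1.16 to 1.68 for Vim and 0.95 to 1.67 for Fn1, with changes of sign for Snai1, Snai2 and Twist2. The replicate block turned Snai2 to -0.43 and gave 1885 genes at an unadjusted p under 0.05. Same-numbered tumors share a transplantation experiment, and the correlations of their deviations were 0.568, 0.071 and -0.038 for replicates 1, 2 and 3. The labels give the number no meaning within an experiment, and the block changed no call. In all, 157 alternative values of members kept direction and side of the threshold, 11 reversed, and 2 passed the threshold. Snai1, Twist1, Twist2 and Cdh2 rest on few counts.

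Of the lists' median log2 fold changes, 458 alternative values moved by less than the spread between tumors and 36 by more. DESeq2 gave 0.89 for the cadherin, vimentin and fibronectin members and 0.72 for adipocytes, and without Dnmt3a(+/-)-BM replicate 2 it gave 0.60 and 1.13, with 0.047 for other cadherins and 0.24 for mesenchymal products. Library size only gave 0.46 for other cadherins, -0.14 for epithelial junction genes and 0.11 for neutrophils, and no filter gave 0.88 for the cadherin, vimentin and fibronectin members. The replicate block gave 3.00 for B cells and 1.11 for erythroid genes. The fibroblast covariate gave 0.86 for the cadherin, vimentin and fibronectin members, 0.11 for other cadherins, 0.074 for mesenchymal products and -0.14 for macrophages. BMT18 alone gave 0.74 for the cadherin, vimentin and fibronectin members, 0.062 for other cadherins and -1.07 for colon epithelium. Leaving out single tumors gave 0.24 to 0.79 for the EMT factor members, 0.70 to 1.32 for the cadherin, vimentin and fibronectin members, -0.38 to 0.50 for other cadherins, 0.26 to 1.01 for mesenchymal products, -1.03 to -0.48 for colon epithelium, 0.47 to 1.28 for enteric neurons and glia, -0.31 to 0.0068 for neutrophils, 1.43 to 4.23 for B cells, -0.45 to 4.73 for mast cells and 0.24 to 3.25 for mesothelium. The cause of these changes was not tested.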

Other observations

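Other lists gave values that belong to no comparison above. B cell and plasma cell, mast cell and erythroid markers had median log2 fold changes of 1.35, 1.80 and 2.78 with Dnmt3a(+/-)-BM, and 1.53, -0.45 and 2.63 without Dnmt3a(+/-)-BM replicate 2. Ret, a receptor of enteric neuron precursors, was at 4.97, 5.42 and 8.23 CPM in Dnmt3a(+/+)-BM tumors and at 12.0, 24.2, 29.6 and 35.2 CPM in Dnmt3a(+/-)-BM tumors, with a log2 fold change of 2.03 (SE 0.40) and an adjusted p of 0.361 by edgeR and 0.000356 by DESeq2, which called it. Msln, which marks mesothelium, ranged from 3.60 to 112 CPM and overlapped between the groups, and the other 3 mesothelial markers were too low to test. Of 5 adipocyte markers 2 were tested, with Fabp4 higher (log2 fold change 1.63, SE 0.53) and Cidec lower (-0.78, SE 0.35). Among the squamous genes, Krt14 was at 149 CPM in Dnmt3a(+/-)-BM replicate 2, where Krt5 was at 0.0815 CPM, against 1248 to 7171 CPM in the other 6 tumors.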
